A study of Danio rerio with 3 samples.

Results

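The oligos described here were the probes for the DNA replication machinery on a printed zebrafish array, read in FoxH1 morphant and control morphant embryos. They were chosen by title: a spot was taken if its title named a minichromosome maintenance protein, a replication factor, replication protein A, a DNA polymerase, a DNA primase, proliferating cell nuclear antigen, ribonucleotide reductase or a topoisomerase, or if its symbol was pcna, rrm1, rrm2 or mcm with a digit. Of 33741 distinct oligos, 74 met the rule, 53 of them from the MWG set, 17 from Operon and 4 from Compugen, each printed as 1 spot. A value on every array was obtained for 68 of the 74, and these are the members tested. Titles are those of the array design, and most of them name the best match in human, mouse, rat, hamster, chicken, Xenopus or fish, so an oligo is called here by what its title names and by its plate position (for example Oprn1P06).

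The samples were 3 two-colour arrays, and on each of them RNA of FoxH1 morphants was hybridised together with RNA of control morphants. A morpholino is a synthetic antisense molecule that keeps its target RNA from being translated or spliced. FoxH1 morphants were zebrafish embryos that had received one against the transcription factor FoxH1, and control morphants had received a control morpholino. Each pool held 50 embryos at 40% epiboly, an early stage in which cells spread over the yolk; strain and morpholino dose are not given in the sources available. The design text describes 3 independent repeats of the procedure with 1 dye swap, so n is 3 arrays. The dye of the morphant RNA was Cy3 on the first pair of arrays and, after the swap, Cy5 on array 3.

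Before a cell divides, its genome is copied once. In G1 the origin recognition complex, Cdc6 and Cdt1 load the hexameric MCM helicase, built of Mcm2 to Mcm7, onto origins, and in S phase the helicase unwinds DNA while replication protein A coats the exposed strands. Primase and polymerase alpha lay down primers, replication factor C loads the ring-shaped clamp PCNA at them, and polymerases delta and epsilon then extend the strands. Ribonucleotide reductase makes the deoxynucleotides, and topoisomerases release the twist ahead of the fork. Cleavage-stage fish embryos copy their DNA in very short cycles on stores laid down in the egg, and cycles lengthen after the midblastula transition, so at this stage a whole-embryo level mixes maternal and zygotic transcripts.

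All ratios are log2 of morphant over control after loess normalization within each array, so a value of 1 is a doubling in morphants and -1 a halving. They compare shares of a whole-embryo RNA pool, so a change in the number of cells that carry a transcript and a change in the transcript per cell cannot be told apart. On array 3 the column that holds the morphant was settled partly from the data. Local background was brighter in red than in green at 94.1% of spots on array 3, but at only 5.5% of spots on array 1 and 5.15% on array 2. Green-over-red ratios of randomly generated control oligos correlated at r = 0.926 between arrays 1 and 2, and at r = -0.733 between the mean of those arrays and array 3 (132 of 188 spots). These values go with columns ordered by sample rather than by dye, and the green column was therefore read as the morphant on all 3 arrays. With the opposite reading (array 3 turned), the sign of array 3 is reversed, and such values stand beside the main counts. Ratios of all tested oligos correlated at r = 0.822 between arrays 1 and 2 but at r = -0.35 and r = -0.465 between these arrays and array 3, and over the 68 replication oligos the correlations were 0.909, -0.489 and -0.599. They run across oligos on shared arrays and are descriptions only. An oligo whose ratio goes with the dye rather than with the sample shows opposite signs on array 3 and on the other arrays, so for a number of oligos the mean of both dye orientations is given beside the 3-array mean. For an oligo of 1 sign on all 3 arrays, turning array 3 always brings the mean nearer to 0.

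No replication oligo passed limma's test for a difference between morphants and controls. The count was 0 of 68 (lowest Benjamini-Hochberg adjusted p = 0.282), against 0 of 26222 tested oligos (0%), and a test without limma's moderation gave 0 as well. At an unadjusted p under 0.05 there were 7 replication oligos (10.3%), against 11.3% of all tested oligos. Of these 7, 3 were lower and 4 higher, against 5.29% lower and 6.06% higher over all tested oligos. The test without moderation gave 12 (17.6%), against 12% of all tested oligos. The median over the 68 oligos of the 3-array mean log2 ratio was 0.11, against 0.016 over all tested oligos. Medians taken on arrays 1, 2 and 3 separately were 0.077, 0.012 and -0.064, each below 0.11. Over all tested oligos they were 0.010, -0.017 and 0.008. On all 3 arrays 15 replication oligos (22.1%) lay below 0 and 15 (22.1%) above it, against 17.6% lower and 17% higher over all tested oligos. A further 28 (41.2%) had the same sign on arrays 1 and 2 and the other sign on array 3, against 49.6% of all tested oligos. The means leaned upwards, with 44 of 68 above 0 (64.7%) and 24 below, against 51.4% above 0 over all tested oligos. This share differed by set. It was 65.3% of 49 MWG members against 55.7% of all MWG oligos, and 53.3% of 15 Operon members against 39.4% of all Operon oligos. All 4 Compugen members were above 0, against 50% of all Compugen oligos. However, 3 of the 4 (75%) had the other sign on array 3, against 49.9% of all Compugen oligos. Over both dye orientations the median of the replication oligos was 0.083, against -0.010 over all tested oligos. With array 3 turned, 12 lay below 0 throughout and 16 above it, against 24.8% of all tested oligos in each direction, and 7 passed the adjusted threshold, against 9.53% of all tested oligos. Of these 7, 6 were higher (8.21% over all tested oligos) and 1 was lower (1.32%). Without array 3, 13 replication oligos (19.1%) passed, against 22.7% of all tested oligos; 9 were higher and 4 lower, against 14.6% higher and 8.18% lower over all tested oligos. In that setting 27 lay below 0 on both arrays and 31 above, against 42.3% and 41.8% of all tested oligos. Arrays 1 and 2 carry the morphant in the same dye, so a morphant difference and a dye difference cannot be told apart there. With either of the other arrays left out none passed.

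Markers of embryo regions, read through the symbol column, are given for comparison. The 4 margin and mesendoderm oligos (ntl, tbx16, gata5 and sox32) lay below 0 on all 3 arrays, with means between -2.12 and -1.23. The enveloping layer keratin oligo krt8 was at -1.53 and the yolk syncytial layer oligo gata6 at -0.70, both below 0 on all 3 arrays. The germ cell oligo vasa had mixed signs and a mean of -0.036, whereas dazl was above 0 on all 3 arrays, at 2.73 ± 1.37 (SD, n = 3 arrays; adjusted p = 0.341). Of the genes of tissues formed later, 1 of 4 oligos was measured on every array (cryaa, mean -1.05, mixed signs). Only 1 of the 2 germ cell oligos, and not cryaa, was more than 2 background SDs above background in each column of every array. The enveloping layer list had tested oligos for 1 of 5 symbols and the yolk syncytial layer list for 1 of 3. The germ cell list had tested oligos for 2 of 6. Of the negative control spots, 70.2% of the random ones and 26.6% of the Arabidopsis ones were more than 2 background SDs above background in each column of every array, so detection alone does not set an oligo apart from the random controls. The part of these cell populations in the replication values was not tested. The targeted transcript foxh1 had 2 measured oligos, at -0.0037 ± 0.39 and -0.049 ± 0.21 (SD, n = 3 arrays), near 0 in both cases. CP2I22 read 0.19, 0.25 and -0.45 and Oprn3D08 read -0.22, -0.11 and 0.18, so each had the other sign on array 3. FoxH1 protein was not measured on these arrays, and the effect of the morpholino on it was not tested.

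The MCM helicase was represented by only 2 oligos under the rule, since most MCM titles on the array say "mcm" or "licensing factor" without the words that the rule asks for. The oligo titled for human MCM3, Oprn9D20, read 0.046, -0.38 and 0.16 on arrays 1, 2 and 3. MWG36D20, a match to the zygotic MCM6 of Xenopus, which replaces a maternal form in frog embryos, read -0.33, 0.27 and -1.54. Both had mixed signs, with means of -0.060 ± 0.29 and -0.53 ± 0.92 (SD, n = 3 arrays), and the arrays differed by more than the means differed from 0.

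Another 25 oligos carried MCM or licensing factor titles outside the rule, and 23 of them were measured on every array. This list was added after the titles had been read. Its median was -0.25 (arrays: -0.21, -0.39 and -0.10), with 10 oligos below 0 (43.5%) and 2 above 0 (8.7%) on all 3 arrays, against 17.6% and 17% of all tested oligos. Of those 10 lower oligos, 7 carry MCM2 titles (below), so the share counts oligos for the same subunit repeatedly. None of the 23 passed the test (lowest adjusted p = 0.352). With array 3 turned, 4 lay below 0 throughout (17.4%) and 2 above (8.7%), against 24.8% of all tested oligos in each direction. In that setting 2 of the 23 passed (MWG17G13 and Oprn8J22, adjusted p = 0.0122 and 0.0188), against 9.53% of all tested oligos. Without array 3, 17.4% of the 23 passed, against 22.7% of all tested oligos.

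All 8 oligos titled for MCM2, a subunit of the helicase ring, had a mean below 0, against 12756 of 26222 tested oligos. Of the 8, 7 (87.5%) were below 0 on all 3 arrays, against 17.6% of all tested oligos. MWG16N17, MWG25A4 and MWG34M16 carry the same Xenopus title, so the 8 are not independent measures of the subunit. The lowest, MWG16N17, read -0.63, -0.98 and -0.44, with a mean of -0.68 ± 0.27 (SD, n = 3 arrays; adjusted p = 0.383). Next came MWG25A4, which read -0.65, -0.83 and -0.46 (adjusted p = 0.373). The other 6 MCM2 oligos had means between -0.32 and -0.18. Among these, the zebrafish mcm2 oligo Oprn2K22 read -0.041, -0.18 and -0.33, the mean nearest to 0. The exception to a shared sign was MWG34M16, which was at 0.026 on array 3. The median over the 8 was -0.30 as the 3-array mean and -0.25 as the mean of both dye orientations. With array 3 turned it was -0.18, with 1 oligo (12.5%) lower on all 3 arrays, against 24.8% of all tested oligos. Like the MCM3 oligos other than Oprn9D20 (below), these oligos lie outside the naming rule and were singled out after their values had been seen.

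MCM3, another subunit of the ring, had 4 measured oligos. Of these, 2 (50%) lay above 0 on all 3 arrays, against 17% of all tested oligos. CP10D7 read 0.86, 0.57 and 0.70 (mean 0.71 ± 0.14, adjusted p = 0.352), and MWG32A12 read 0.80, 0.51 and 0.57 (mean 0.62 ± 0.15, adjusted p = 0.373). Both oligos were higher on every array, with a spread between arrays smaller than the mean. With array 3 turned they were at 0.24 and 0.25 (adjusted p = 0.709 and 0.670). The other MCM3 oligos did not share this: MWG21J2 was at 0.91 and 0.72 on arrays 1 and 2 but at -0.44 on array 3, and Oprn9D20 (above) was near 0. Zebrafish has more than 1 gene of this subunit, and the titles do not say which gene each oligo matches. Oprn9D20 met the membership rule because its title also names DNA polymerase alpha. The other MCM3 oligos were singled out after their values had been seen, since the naming rule does not cover the MCM list.

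Of the other subunits, MCM4 had 5 measured oligos with means between -0.32 and 0.039. On all 3 arrays 2 of them (40%) lay below 0, against 17.6% of all tested oligos. MWG24K13 was the lowest of these, at -0.23, -0.43 and -0.31. MCM5 had 3, of which CP12C1 and MWG28J6 had means of -0.26 and -0.34, whereas MWG17G13 read 1.88, 1.80 and -1.53 and so changed sign between the dye orientations, with 0.15 over both. The same held in the other direction for the MCM6 oligo Oprn8J22, at -1.21, -1.54 and 1.43. The 1 measured MCM7 oligo, CP41K7, was at -0.64 and -0.62 on arrays 1 and 2 and at 0.48 on array 3.

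PCNA, the sliding clamp, was measured by 4 oligos that lay close to 0. Oprn1P06, the oligo with the symbol pcna, read -0.13, -0.23 and -0.17, with a mean of -0.18 ± 0.053 (SD, n = 3 arrays; adjusted p = 0.720). MWG24N22, to the same transcript, read 0.046, -0.081 and -0.30. MWG1L5, a match to eel PCNA, read -0.029, -0.016 and -0.44. These 3 differed from one another by less than the spread of MWG24N22 between arrays. The Compugen oligo CP1F10 stood apart at 0.44, 0.64 and -0.67, with a mean of 0.14 but a value of -0.063 over both dye orientations. On that scale all 4 lay between -0.23 and -0.063.

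Replication factor C, the loader of the clamp, held the member with the lowest ratio. Oprn5G22, whose title names the 38-kDa subunit, read -2.85, -2.09 and -1.64 on arrays 1, 2 and 3. This is a mean of -2.19 ± 0.61 (SD, n = 3 arrays), or 0.219 of the control level, with limma's adjusted p = 0.282 over all oligos and rank 284 by unadjusted p (0.00325). Over both dye orientations it was at -2.06, and with array 3 turned at -1.10. Without array 3, and so without the dye swap, it was at -2.47 and passed (adjusted p = 0.0350).

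The other oligos for the same subunit did not share the size of that value. MWG32J1 read -0.22, -0.18 and -0.62 and MWG14C4 read -0.30, 0.11 and -0.59. Their means, -0.34 ± 0.25 and -0.26 ± 0.35, had the same sign as Oprn5G22 but ended well short of its least negative array. Both oligos were dimmer, with mean log2 intensities (over both columns and all arrays) of 8.84 and 7.10, against 11.84 for Oprn5G22. Whether the 3 oligos detect the same transcript cannot be told from the titles. The 40-kDa subunit oligo MWG13A8 read -0.25, -0.40 and -0.15 (mean -0.27 ± 0.13, adjusted p = 0.626). For the 37-kDa subunit, MWG29K16 read -0.00040, 0.24 and -0.046 and MWG31B1 read 1.39, 0.16 and -0.82. The class had 3 of 6 oligos below 0 on all 3 arrays (50%) and none above, against 17.6% and 17% of all tested oligos. Of those 3, 2 were for the 38-kDa subunit. The class median was -0.26 (arrays: -0.23, -0.035 and -0.61).

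Replication protein A, which protects exposed strands, had 5 oligos, 3 of them to the zebrafish transcript that the arrays call rpa and that RefSeq now names rpa2, a subunit of the complex. Those 3 disagreed. The Operon oligo Oprn2F15 read -0.50, -0.46 and 0.049, MWG17H10 read 1.39, 1.44 and -1.93, and the Compugen oligo CP1P13 read 3.26, 3.04 and -2.87. On each of them array 3 had the opposite sign to arrays 1 and 2, as on 49.6% of all tested oligos. Over both dye orientations they came to -0.22, -0.26 and 0.14. The Xenopus matches MWG15I2 and MWG29M3 read 0.17, 0.10 and 0.59, and 0.017, -0.24 and 0.61. MWG15I2 was the only member of the class with 1 sign on all 3 arrays, with a mean of 0.29 ± 0.26 (adjusted p = 0.650). Its sign turned with array 3 turned (-0.11).

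Polymerase alpha and primase, which start each new strand, had 6 oligos, of which 5 had means above 0 and 1 below. The share above 0 was 83.3%, against 51.4% of all tested oligos. For the catalytic subunit of polymerase alpha, MWG30P15 read 0.38, 0.025 and 0.35, MWG10I13 read -0.54, -0.0064 and -0.40, and Oprn8L02 read 0.30, -0.37 and 1.07. The first 2 carry the same Xenopus title and had 1 sign each on all 3 arrays, but opposite ones. The primase p48 oligo MWG27O11 read 0.11, 0.20 and 0.0079, the smallest spread of the 3 primase oligos. MWG27D11, with the same p48 title, was at 0.61, 0.49 and -0.84, and at -0.14 over both dye orientations. The p58 oligo MWG15E13 was at 1.28, 1.13 and -0.60, a mean of 0.61 but 0.31 over both dye orientations.

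Polymerase delta, the main lagging-strand enzyme, had 5 oligos to its catalytic subunit. Of these, 4 (80%) changed sign between the dye orientations, against 49.6% of all tested oligos. Oprn7J15, the fifth, read 0.31, 0.091 and 0.30, a mean of 0.23 ± 0.12 (SD, n = 3 arrays). MWG11K2 had the widest swing of any member, at 3.58, 3.30 and -3.29, while MWG26K3, which carries the same mouse title, read only 0.18, 0.22 and -0.082. MWG31I12 swung the same way (1.45, 1.62 and -1.33), and Oprn9J23 the other way (-1.96, -1.50 and 1.92). The last of these exceeded 2 background SDs on 1 array in the morphant column and 2 in the control column. Over both dye orientations all 5 fell between 0.060 and 0.25. The p38 subunit oligo MWG8O23 read 0.30, -0.11 and 1.03.

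Polymerase epsilon, the leading-strand enzyme, showed a common pattern in the 3 oligos for its subunit B (pole2). Oprn2M08 read -0.39, -0.66 and 1.21, MWG13E5 read -0.52, -0.23 and 0.78, and MWG31O15 read -0.34, -0.15 and 0.60. All were below 0 on arrays 1 and 2 and above 0 on array 3, and their 3-array means were 0.054, 0.012 and 0.036. Of all tested oligos, 49.6% had the other sign on array 3 than on arrays 1 and 2. Over both dye orientations they were at 0.34, 0.20 and 0.18. The catalytic subunit oligo MWG21J1 read 0.91, 0.042 and -0.64. Of the 13 oligos of polymerases alpha, delta and epsilon, 1 (7.69%) lay below and 2 (15.4%) above 0 on all 3 arrays. The shares over all tested oligos were 17.6% and 17%. The median of the 13 was 0.11.

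Polymerases outside the replication fork included the members of this class with the smallest p. Polymerase lambda, a repair enzyme that fills gaps in base excision repair and end joining, was higher on every array with both of its oligos. Oprn8N23 read 0.61, 0.39 and 0.46, a mean of 0.49 ± 0.11 (SD, n = 3 arrays; adjusted p = 0.429). MWG21J9 read 0.74, 0.069 and 0.98, a mean of 0.60 ± 0.47 (adjusted p = 0.520), and its sign turned with array 3 turned (-0.058). The oligo for polymerase zeta, which copies past damaged bases, was also above 0 throughout: MWG3E15 read 0.61, 0.41 and 0.29 (mean 0.43 ± 0.16, adjusted p = 0.480). None of these passed over all oligos. They were named for the smallest p among oligos of 1 sign, a choice that favours a spread small against the mean.

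The remaining polymerases lay closer to 0. For the base excision repair polymerase beta, MWG11B7 read 0.0049, -0.054 and 0.64 and MWG13F21 read -0.18, -0.21 and 0.75. Both had their highest value on array 3. Mitochondrial polymerase gamma was at -0.20, -0.073 and -0.18 with MWG31G21 and at -0.24, -0.00030 and 0.41 with MWG2I16. The translesion polymerase iota oligo MWG4I5 read 0.17, 0.20 and -0.12. Among the 8 measured oligos of these repair, translesion and mitochondrial enzymes, 3 were higher (37.5%) and 1 lower (12.5%) on all 3 arrays. The shares over all tested oligos were 17% and 17.6%. The median of the 8 was 0.16.

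Ribonucleotide reductase, the source of deoxynucleotides, had the highest class median, 0.32 over 8 oligos (arrays: 0.40, 0.42 and 0.13). Its large subunit R1, the gene rrm1, gave 3 means above 0. MWG3G9 read 0.52, 0.68 and 0.34, with a mean of 0.51 ± 0.17 (SD, n = 3 arrays; adjusted p = 0.431). Oprn3K12, the oligo with the symbol rrm1, read 0.70, 0.62 and -0.10 (mean 0.41 ± 0.44, adjusted p = 0.624). CP1P7 read 2.65, 2.89 and -2.51, so its mean of 1.01 ± 3.05 rests on arrays 1 and 2. Over both dye orientations the 3 oligos came to 0.47, 0.28 and 0.13, above 0 in each case but spread widely.

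The small subunit R2, called rrm2 on the array and rrm2l in RefSeq, was measured by 3 zebrafish oligos that agreed in sign. CP2M9 read 0.31, 0.39 and 0.20 (mean 0.30 ± 0.096, adjusted p = 0.580). MWG21J23 read 0.49, 0.45 and 0.047 (mean 0.33 ± 0.24, adjusted p = 0.605). Oprn2M15, with the symbol rrm2, read 0.11, 0.18 and 0.39 (mean 0.23 ± 0.15, adjusted p = 0.673; -0.033 with array 3 turned). All 3 oligos were thus above 0 on all 3 arrays, at fold values of 1.23, 1.26 and 1.17. They are 3 of 4 oligos with R2 titles (75%), against 17% of all tested oligos above 0 on all 3 arrays.

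Another oligo titled by similarity to the same zebrafish R2 sequence had the opposite sign. MWG15K24 read -0.48, -0.45 and -0.71, a mean of -0.55 ± 0.15 (SD, n = 3 arrays; adjusted p = 0.405). With array 3 turned it was at -0.071, near the -0.033 of Oprn2M15. Its 3 values did not overlap with those of the other R2 oligos on any array. The title gives a similarity and not an identity, and whether this oligo detects another small-subunit gene was not tested. MWG24M6, a match to hamster ribonucleotide reductase with no subunit named, read -0.87, -1.002 and 0.72.

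Topoisomerase I, which relaxes DNA by cutting a single strand, was split between its 8 oligos. Of these, 4 (50%) lay in a narrow band below 0 on all 3 arrays, against 17.6% of all tested oligos. MWG34B16, MWG17G4 and MWG33F3 carry the same chicken title, so the 4 are not independent measures. Oprn8J15 read -0.50, -0.44 and -0.32 (mean -0.42 ± 0.090, adjusted p = 0.471), and MWG34B16 read -0.43, -0.43 and -0.31 (mean -0.39 ± 0.070, adjusted p = 0.492). MWG17G4 and MWG33F3 had means of -0.36 ± 0.14 and -0.36 ± 0.20. The 4 means differed from one another by less than the spread between arrays of MWG17G4, and none passed over all oligos.

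The other 4 topoisomerase I oligos had means above 0. Oprn5I07 read 1.03, 0.65 and 0.35 (mean 0.68 ± 0.34, adjusted p = 0.417), the only one of these above 0 on all 3 arrays. MWG24L3 read 1.62, -0.39 and 0.59, MWG2A22 read 0.98, 0.64 and -1.13, and MWG8A8 read -0.47, -0.86 and 1.53 (0.43 over both dye orientations). MWG2A22 shares its chicken title with MWG34B16, MWG17G4 and MWG33F3 and differed from them in sign on arrays 1 and 2. The 4 oligos with means above 0 were dim, with mean log2 intensities between 6.56 and 7.14, against a median of 9.01 over the members. For the topoisomerase I oligos below 0 on all 3 arrays the range was 8.90 to 11.87. MWG8A8 exceeded 2 background SDs in the control column on 2 arrays only. The part of signal strength in this split was not tested.

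Oligos matching the pufferfish topoisomerase I beta also lay below 0. MWG9F4 read -0.46, -1.45 and -0.57 (mean -0.83 ± 0.54, adjusted p = 0.440). MWG7P6 read -0.16, -0.20 and -0.53, and MWG28I21 read -0.24, -0.36 and 0.023. Only the last crossed 0, and only on array 3.

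Topoisomerase II, which passes one duplex through another and separates sister chromatids, showed no common direction. Its alpha form, typical of dividing cells, had 3 oligos that all changed sign between the dye orientations, as did 49.6% of all tested oligos. MWG8G20 read 1.05, 1.08 and -0.68, MWG11N15 read 1.23, 0.91 and -0.90, and Oprn8P14 read -0.067, -0.47 and 0.72. Over both dye orientations they lay between 0.082 and 0.22. For the beta form, MWG2M13 read 0.36, 0.20 and 0.35 (mean 0.30 ± 0.088, adjusted p = 0.578) and MWG18C2 read 0.27, 0.46 and 0.043, whereas Oprn5I02 read -1.09, -0.87 and 0.18. MWG16J16, a match to rat topoisomerase II, read -0.097, -0.17 and -0.11.

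The highest ratio among the members belonged to an oligo that is no topoisomerase. MWG8C12 entered through its title, "topoisomerase-related function protein; trf4-1"; in yeast, Trf4 is a poly(A) polymerase of nuclear RNA surveillance. It read 1.94, 1.95 and 0.72 on arrays 1, 2 and 3, a mean of 1.54 ± 0.71 (SD, n = 3 arrays), or 2.9-fold, with an adjusted p = 0.339. Over both dye orientations it was at 1.33, and with array 3 turned at 1.06. Without array 3, and so without the dye swap, it was at 1.95 and passed (adjusted p = 0.0258). Together, the 19 topoisomerase-titled oligos had 7 below (36.8%) and 4 above 0 (21.1%) on all 3 arrays. The shares over all tested oligos were 17.6% and 17%. The class median of the 3-array mean was 0.060. Medians taken on arrays 1, 2 and 3 separately were -0.0965, -0.21 and -0.11, and the median over both dye orientations was -0.12.

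Other genes of the pathway were taken from a list of titles and symbols for origin licensing, helicase activation, strand joining, nucleotide supply and chromatin assembly. Of 35 such oligos 30 were tested, 0 passed (lowest adjusted p = 0.292), and at an unadjusted p under 0.05 there were 2 lower and 2 higher, together 13.3%, against 11.3% of all tested oligos. On all 3 arrays 5 lay below 0 (16.7%) and 7 above (23.3%), against 17.6% and 17% of all tested oligos, and the median was 0.071. Cdc45, which joins the MCM ring to form the active helicase, was the highest: MWG31P21 read 1.79, 1.999 and 0.26 (mean 1.35 ± 0.95, adjusted p = 0.427; 1.08 over both dye orientations), and MWG15H4 read 0.67, 0.45 and 0.50 (mean 0.54 ± 0.12, adjusted p = 0.401). A further Cdc45 oligo, MWG33N3, read 1.20, 1.51 and -0.49. All 3 were above 0 on arrays 1 and 2, and 2 of them on array 3.

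Thymidylate synthase, which makes the thymine nucleotide, was above 0 on all 3 arrays with the oligos MWG8K3 (0.30, 0.42 and 0.50; mean 0.41 ± 0.10, adjusted p = 0.487) and Oprn1K15 (0.33, 0.052 and 0.86; mean 0.41 ± 0.41). The third oligo, CP2M13, was near 0 on arrays 1 and 2 (-0.0085 and -0.067) and at 1.39 on array 3. Dihydrofolate reductase, which recycles the folate that this enzyme uses, was at -0.70, -0.85 and -0.29 with Oprn1I20 (mean -0.61 ± 0.29, adjusted p = 0.424). Its Compugen oligo CP1P12 read 2.88, 2.92 and -3.04, and MWG23D12 read -0.019, 0.21 and -0.91, so the 3 oligos did not give a single direction. DNA ligase III was lowest with MWG20M1 at -1.05, -0.86 and -0.90 (mean -0.94 ± 0.099, adjusted p = 0.292), the narrowest of the larger values. Without array 3, and so without the dye swap, this oligo, Oprn1I20 and MWG31P21 passed (adjusted p = 0.0396, 0.0466 and 0.0271). In that setting 23.3% of the 30 tested oligos of the other pathway list passed, against 22.7% of all tested oligos. With array 3 turned, 2 of the 30 passed, against 9.53% of all tested oligos. The other ligase III oligos, MWG5M10 and MWG7I4, had means of -0.31 ± 0.38 and -0.098 ± 0.46. The DNA ligase I oligo CP38J24 had the opposite sign to MWG20M1, at 0.26, 0.22 and 0.21 (adjusted p = 0.648). A flap endonuclease match, Oprn5M23, read 0.15, 0.13 and 0.18 (adjusted p = 0.744). A thymidine kinase match, MWG35P12, read -0.29, -0.45 and -0.40 (mean -0.38 ± 0.079, adjusted p = 0.504).

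Agreement between oligos of 1 target sets the limit on reading any of these genes. Of 18 targets with at least 2 measured members, 10 had all their means on the same side of 0. No such share was worked out for other targets on the array, so this count has no background beside it. The difference between the dye orientations was taken as the mean of arrays 1 and 2 minus array 3, divided by 2. Only array 3 has the swapped orientation, so a dye difference and a difference between repeats cannot be told apart in it. The size of this difference had a median of 0.25 log2 units over the members and 0.34 over all tested oligos. It exceeded 1 in 7 members (10.3%), against 16.1% of all tested oligos. Those 7 were 3 polymerase delta oligos (MWG11K2, MWG31I12 and Oprn9J23), 2 for rpa (CP1P13 and MWG17H10), CP1P7 for rrm1 and MWG8A8 for topoisomerase I. All but MWG8A8 were among the 7 that passed with array 3 turned; the other was MWG11N15 for topoisomerase II alpha.

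The 6 members without a value on every array are listed for completeness. Oprn4O09, for polymerase delta subunit 2, read -1.23 and 0.59 on arrays 2 and 3. Another 4 had a usable spot on 1 array only: MWG9J18 for topoisomerase II beta (0.43 on array 3), MWG5A14 for an unnamed mouse DNA polymerase (-0.51 on array 2), Oprn8F14 for the p58 primase subunit (-1.08 on array 2) and MWG24P14 for polymerase epsilon (0.82 on array 3). MWG21I14, titled for a polymerase accessory subunit, had none. Of the 68 tested members, 66 were more than 2 background SDs above background in each column of every array, against 23898 of 26222 tested oligos. The members that were not are Oprn9J23 and MWG8A8.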

How the data were processed

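Per the file headers, the authors' spot tables give, for a red and a green column, a mean spot intensity and the intensity and SD of the local background, followed by a ratio and a quality score. The deposited intensities were already background-subtracted, judged from the total intensities in the same tables. The deposited ratio is red over green divided by 1 constant per array, which held within 1% for 99.4% or more of spots. The authors' deposited log2 values equal minus log2 of that ratio, and their direction follows the reading of array 3 given above. The sources available do not name the scanner.

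Spots with a quality score of 0 (15.4%, 15.4% and 13.1% of oligo spots) were left out. Log2 of green over red was normalized by loess (span 0.3) on each array, with controls at weight 0. The 26222 oligos with a value on all 3 arrays were tested. A filter on dim oligos (either column more than 2 background SDs above background on 2 or more arrays) removed none of these, so its removal, planned as an alternative, altered nothing. The test was lmFit and eBayes in limma 3.58.1 (R 4.3.3), Benjamini-Hochberg adjustment and a threshold of 0.05. A self-test on simulated data was run. The number of arrays limits the precision. P-values of the main test rest on the spread between these 3 arrays, drawn by limma's moderation towards a spread common to all tested oligos. The spread between arrays takes in the dye swap of array 3.

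The members and lists were chosen with earlier results of these data known. Named by rule were foxh1, members with a symbol, and up to 3 oligos per direction with the smallest p among those of 1 sign on all 3 arrays, in each class and in the other pathway list. Remaining members are given for completeness. All 8 members with RefSeq accessions matched a table for assembly GRCz12tu, used for names only. Alternatives covered the reading of array 3, a dye term, normalization, background, filters, quality, deposited values, moderation and each array left out.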

Additional observations from a re-analysis of the deposited data

How the results depend on the processing

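No replication oligo passed under any setting except 2. The counts past the threshold were 2499 of all tested oligos and 7 replication oligos with array 3 turned, and with 1 array left out they ran from 0 to 5960 and from 0 to 13, the highest without array 3. With 1 array left out, replication oligos of 1 sign ran from 16 to 27 lower and from 15 to 31 higher, and those of the other pathway list from 5 to 12 lower and from 7 to 14 higher, the most in each case without array 3. The median of the replication oligos stayed between 0.038 and 0.13 in all settings. Class medians moved by more than their spread between arrays as follows. With array 3 turned they were 0.16 (MCM helicase), 0.11 (PCNA), 0.087 (replication factor C), -0.11 (replication protein A) and -0.040 (topoisomerases). With a dye term they were 0.14 (replication protein A) and -0.12 (topoisomerases). Ribonucleotide reductase was at 0.14 with median centring and 0.13 with deposited values, replication protein A at 0.19 with normexp, and topoisomerases at -0.080 with loess within print-tip blocks and -0.034 when both columns had to be above background. With 1 array left out, replication protein A ran from 0.084 to 0.20 and topoisomerases from -0.18 to -0.077. Signs of named oligos turned with array 3 turned for CP2I22 of foxh1 (0.30), Oprn2M15 (-0.033), MWG1L5 (0.13), MWG32J1 (0.077), MWG15I2 (-0.11) and MWG21J9 (-0.058). The foxh1 oligos, near 0, also turned with a dye term (Oprn3D08, 0.0094), median centring (CP2I22, 0.057), normexp (0.0029), deposited values (0.050) and with 1 array left out, where CP2I22 ran from -0.13 to 0.22 (highest without array 3) and Oprn3D08 from -0.17 to 0.039 (highest without array 1). The cause of these moves was not tested. No paired analysis was possible because none was left to add: the test on the ratio within each array already pairs morphants with controls. A dye term gives no count of oligos with 1 sign.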
